A study of Homo sapiens with 21 samples.

Results

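Cells that run short of oxygen switch on more than glycolysis. Among the genes raised by hypoxia-inducible factors (HIFs) are growth and stress regulators, secreted factors, enzymes of protein folding and membrane carriers, and 10 such genes outside glycolysis are described here: NDRG1, ANKRD37, DDIT4, STC2, ERO1A, FAM162A, PPFIA4, SLC6A8, MXI1 and VLDLR. They were chosen by their measured values, as strong general hypoxia-induced genes, from 20970 genes listed in any of the 4 RNA-seq tables. They were to be compared by the size of their induction and of its loss with METTL4 siRNA. All 10 were found in each table, and all 10 passed the filter on low values in the 3 tables that allowed a test. Because the choice names induction by hypoxia and its loss with METTL4 siRNA, the values in those comparisons are given as a description with no test. Tests were kept for the overexpression libraries, whose comparisons the choice does not name, although results of all tables were known when it was made.

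The series asks what METTL4, a DNA N6-adenine methyltransferase, does to gene expression under hypoxia. RNA was sequenced from the human cell lines FADU, of a head and neck cancer, and BFTC909, of a transitional cell carcinoma of the renal pelvis. In each line there were 2 libraries of scramble siRNA cells (Scr-si) at 18% O2 (normoxia), 2 of Scr-si cells at 1% O2 (hypoxia) and 2 of METTL4 siRNA cells (METTL4-si) at 1% O2, all kept so for 18 h, and METTL4-si cells in normoxia were not analysed here. FADU cells were also sequenced in normoxia as control, METTL4-overexpressing (METTL4-OE) and lncRNA RP11-390F4.3-overexpressing (RP11-390F4.3-OE) cells, 2 libraries each, and under hypoxia as 1 CRISPR control library and 1 library from each of 2 METTL4-DPPW-mut clones, lines grown from single cells after prime editing of the catalytic site. The overexpressing cells were described as stable transfectants of plasmids. The labels do not say whether replicates were separate cultures, so p-values measure the spread between these libraries, which may be technical.

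HIF is a pair of proteins, an oxygen-labile alpha subunit and a stable beta subunit (ARNT). With oxygen, prolyl hydroxylases mark the alpha subunit for destruction. Without it, the pair binds short DNA elements whose core reads RCGTG and raises transcription nearby. The best known targets rebuild energy supply through glucose uptake and glycolysis, while the genes described here slow growth (DDIT4, MXI1, NDRG1), act in secretion and oxidative protein folding (STC2, ERO1A), sit at mitochondria (FAM162A) or at the cell surface (SLC6A8, VLDLR).

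Values are read counts scaled to library size (CPM) and corrected by edgeR's TMM method, and the libraries held between about 17800000 and 25400000 reads on genes, as recovered from the steps of the values. METTL4 itself was not lower in the FADU METTL4-si libraries (24.2 and 27.1) than in the Scr-si libraries under hypoxia (26.6 and 25.3, limma adjusted p = 0.9). In BFTC909 it was 14.4 and 12.2 against 19.0 and 15.6 (adjusted p = 0.0717). The library labelled METTL4-si replicate 1 of FADU stood apart: the summed value of 7 breast luminal markers was 808 there and that of 2 fibroblast markers 116, against 74.9 to 116 and 4.4 to 5.87 in the other FADU siRNA libraries apart from Scr-si normoxia replicate 1 (233 and 25.6). In METTL4-si replicate 2 of BFTC909, 4 urothelial and simple epithelial markers summed to 1562, against 343 to 468 in the other 5 libraries. The 7 fibroblast markers in the BFTC909 table moved with the conditions as the 10 genes did, summing to 1269 and 1371 in normoxia, 4745 and 4955 under hypoxia and 2702 and 2887 with METTL4-si, with collagen genes COL1A2 and COL1A1 the most abundant, and their part in the BFTC909 values was not tested. All 10 squamous markers were above 1 in every FADU siRNA library, whereas only 4 of 10 urothelial and simple epithelial markers were in the BFTC909 table, with keratin 7, keratin 19 and the uroplakins not among them. In bulk RNA, fewer cells of a type and less RNA per cell cannot be told apart.

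The windows before the transcription starts were read to show what most of these genes carry in their promoters. RefSeq promoter sequences (GRCh38.p14) matched 9 of the 10 genes, all but NDRG1, and the HIF core was searched as ACGTG and GCGTG on both strands (CACGT and CACGC on the printed strand) in the 250 bases before the start, counting CACGTG as 2 overlapping cores. A core was present for 8 of the 9 genes, and SLC6A8 had none in this window. Counted likewise per gene, at the start with most cores, 47.4% of 27305 genes held at least 1 core and 22.6% at least 2. Cores were present for 16 of 20 other HIF targets with an entry and for 13 of 20 relatives of the 10 genes. For the 6 genes whose densest stretch of 40 bases held 2 or more, that stretch is shown 5′ to 3′ on the gene's strand, with the cores in capitals.
PPFIA4: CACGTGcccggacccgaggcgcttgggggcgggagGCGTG
ANKRD37: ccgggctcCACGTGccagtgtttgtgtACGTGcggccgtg
FAM162A: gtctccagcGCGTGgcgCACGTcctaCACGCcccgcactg
STC2: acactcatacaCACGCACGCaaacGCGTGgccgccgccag
VLDLR: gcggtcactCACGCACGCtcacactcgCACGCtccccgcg
MXI1: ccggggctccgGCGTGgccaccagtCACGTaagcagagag
The PPFIA4 stretch lay at chr1:203026372-203026411 (plus strand) and began 119 bases before the start, and that of ANKRD37 lay at chr4:185396671-185396710 (plus strand), 170 bases before it. For FAM162A it was chr3:122384081-122384120 (plus strand), for STC2 chr5:173328621-173328660 (minus strand) and for VLDLR chr9:2621617-2621656 (plus strand). MXI1 has 3 starts in the table, and the stretch shown, chr10:110210093-110210132 (plus strand), precedes the middle one. DDIT4 and ERO1A held 3 and 2 cores spread over the window, with no more than 1 in any 40 bases, and VLDLR held 5 in all. A match of these letters is a description and not a measured binding site.

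The growth and stress regulators were higher under hypoxia and lower again with METTL4-si. NDRG1, a cytoplasmic protein of growth arrest and differentiation and a standard marker of hypoxia, is on chromosome 8. In FADU it stood at 144 and 146 TMM-normalised CPM in normoxia, 2650 and 3135 under hypoxia, and 152 and 171 with METTL4-si, so the mean of the METTL4-si libraries was 1.11 times that of normoxia, where Scr-si hypoxia was 19.9 times it. In BFTC909 NDRG1 was 118 and 124, then 535 and 569, then 242 and 211. The rise was smaller there (4.56-fold), and the METTL4-si libraries stayed above both normoxic ones.

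DDIT4 (REDD1; chr10:74033678-74035794, plus strand, GRCh37), an inhibitor of mTORC1, was 141 and 143 in FADU normoxia, 492 and 533 under hypoxia and 106 and 102 with METTL4-si. Both METTL4-si libraries were thus below both normoxic ones (0.732 of the normoxic mean). In BFTC909 DDIT4 was 225 and 235, then 756 and 802, then 467 and 450, so that its rise was of like size (3.39-fold against 3.62-fold in FADU) but METTL4-si left it at 1.99 times the normoxic mean. MXI1 (chr10:111967363-112047123, plus strand), a MYC antagonist that pairs with MAX, was 8.85 and 9.20, then 27.9 and 35.9, then 11.3 and 9.34 in FADU. In BFTC909 MXI1 was 10.1 and 13.3, then 30.3 and 31.7, then 18.4 and 15.4.

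The genes of secretion and folding differed in how well their libraries agreed. STC2 (stanniocalcin 2, a secreted glycoprotein; chr5:172741726-172755450, minus strand) was 127 and 99.8 in FADU normoxia and 265 and 280 under hypoxia, but 271 in METTL4-si replicate 1 and 125 in replicate 2. The library at 271 lay between the Scr-si hypoxia libraries, and it is the one with the high breast luminal and fibroblast markers. In BFTC909 STC2 was 125 and 128, then 446 and 451, and with METTL4-si 107 in replicate 1 and 204 in replicate 2, the latter being the library with high keratin 8 and keratin 18. The part of these other markers in the STC2 values was not tested. ERO1A (chr14:53106633-53162618, minus strand), the oxidase that passes electrons from protein disulphide isomerase to oxygen, was 135 and 140, then 380 and 398, then 157 and 175 in FADU. ERO1A in BFTC909 was 170 and 167, then 398 and 362, then 231 and 182.

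FAM162A (chr3:122103008-122131181, plus strand), a mitochondrial protein tied to hypoxic cell death, was 26.8 and 27.1 in FADU normoxia, 76.2 and 83.6 under hypoxia and 23.0 and 23.6 with METTL4-si. As with DDIT4, the METTL4-si libraries were below the normoxic ones. In BFTC909 FAM162A was 15.7 and 17.5, then 84.7 and 91.9, then 25.5 and 21.6. WDR5B, which overlaps FAM162A on the opposite strand, stayed between 18.1 and 22.5 in FADU and between 9.32 and 12.4 in BFTC909. The labels name a stranded kit, and the strand setting of the counting is not given in the sources used here.

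Among the membrane proteins, SLC6A8, the creatine transporter (chrX:152953381-152962043, plus strand), rose 9.89-fold in FADU, from 11.6 and 9.87 to 100 and 112, and was 15.4 and 10.4 with METTL4-si. In BFTC909 SLC6A8 was 21.0 and 22.6, then 116 and 118, then 47.4 and 49.4. VLDLR, the very low density lipoprotein receptor (chr9:2621182-2660056, plus strand), was 11.8 and 13.4, then 35.9 and 38.8, then 16.8 and 17.7 in FADU. In BFTC909 VLDLR was 104 and 124, then 587 and 598, then 262 and 204. Its opposite-strand neighbour VLDLR-AS1 moved with it in BFTC909 (means of 3.32, 14.4 and 5.6) and stayed between 0.873 and 1.51 in FADU, where VLDLR also rose.

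PPFIA4, a liprin scaffold protein (chr1:202995619-203047868, plus strand), had the second largest fold in FADU: 3.16 and 3.62 in normoxia, 50.3 and 51.9 under hypoxia, and 8.97 and 5.16 with METTL4-si. In BFTC909 PPFIA4 was 14.4 and 17.7, then 117 and 123, then 28.5 and 29.1, and its 7.48-fold rise was the largest of the 10 there. ANKRD37, a small ankyrin repeat protein (chr4:186317175-186321782, plus strand), was the least abundant, at 0.997 and 1.12, then 5.17 and 5.70, then 1.36 and 1.78 in FADU. In BFTC909 ANKRD37 was 2.15 and 2.77, then 5.25 and 5.11, then 0.844 and 1.06, below both normoxic libraries. UFSP2, which overlaps ANKRD37 on the opposite strand, was between 9.81 and 16.0 in FADU, where it was lower with METTL4-si than in Scr-si hypoxia libraries (-0.51, adjusted p = 0.0161), and between 13.7 and 18.4 in BFTC909.

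**Figure D1:**
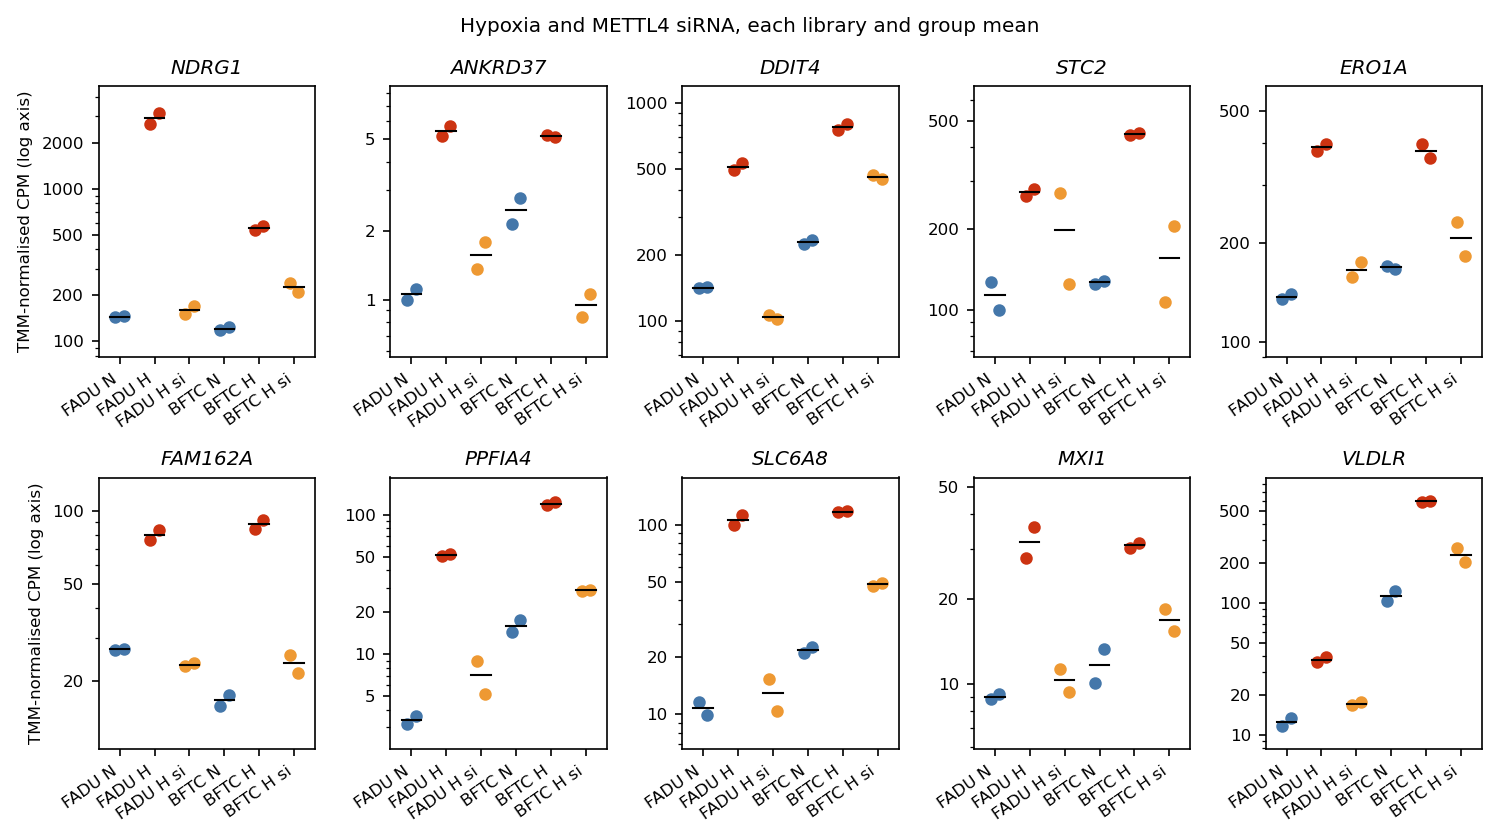
TMM-normalised CPM of each gene on a log axis, in Scr-si normoxia (N), Scr-si hypoxia (H) and METTL4-si hypoxia (H si) libraries of FADU and BFTC909 (BFTC); each point is 1 library and each line the mean of 2. Hypoxia libraries lie above normoxia libraries in all panels, and the METTL4-si pair of STC2 is spread widely, from 125 to 271 in FADU.

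By the choice of the genes, all 10 had hypoxia libraries above the normoxia libraries in both lines, where 12.4% of the 16324 genes tested in FADU and 19.5% of the 14869 tested in BFTC909 were called higher at 1.3-fold or more with p under 0.05, the criterion of the study. All 10 in BFTC909, and 9 in FADU, had METTL4-si libraries below the Scr-si hypoxia libraries, the exception being STC2, and 16.8% and 12.9% of all genes were called lower in this comparison in FADU and BFTC909. Nothing is read from these counts, since the choice of the genes names the same comparisons. The measures also differ: the counts are of libraries without overlap, and the shares are of calls. The order of induction differed between the lines. On the scale of log2(value + 1), NDRG1 (4.3 ± 0.101, SE), PPFIA4 (3.57 ± 0.217) and SLC6A8 (3.19 ± 0.178) stood apart from the other 7 genes in FADU, which ranged from 1.27 to 1.85. In BFTC909 PPFIA4 (2.83 ± 0.103) was followed by SLC6A8 (2.37 ± 0.0724), VLDLR (2.37 ± 0.128), FAM162A (2.34 ± 0.106) and NDRG1 (2.18 ± 0.082), neighbours that did not differ beyond their errors, and ANKRD37 was lowest at 0.84 ± 0.147. Over the 10 genes, Spearman's rank correlation between the log2 fold changes of the lines was 0.321, close to the 0.385 over the 13595 genes tested in both.

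The share of the hypoxia induction lost with METTL4-si was computed for each gene as the fall from Scr-si hypoxia to METTL4-si hypoxia over the rise from normoxia to hypoxia, on the scale of the values. Its median over the 10 genes was 93.3% in FADU and 78.8% in BFTC909. In FADU it was over 100% for 2 genes, DDIT4 (110%) and FAM162A (107%), close to complete for NDRG1 (99.4%) and SLC6A8 (97.7%), and lowest for VLDLR (81.3%) and STC2 (46.9%). The value for STC2 ran from -4.3% to 102% over the combinations of single libraries, so its precision was too low to place it. Without METTL4-si replicate 1 it was 92.9%, and without replicate 2 it was 0.909%. In BFTC909 the share was lowest for DDIT4 (58.4%, from 54.5% to 62.1% over single libraries) and highest for ANKRD37 (155%, from 135% to 182%). DDIT4 thus had the highest share in FADU and the lowest in BFTC909, with ranges that did not overlap, and the ranges of NDRG1, SLC6A8, FAM162A and ANKRD37 did not overlap between the lines either. The share was larger in FADU for NDRG1, SLC6A8 and FAM162A and larger in BFTC909 for ANKRD37. The tables of the lines were normalised separately and share no library, and the difference between lines was not tested.

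**Figure D2:**
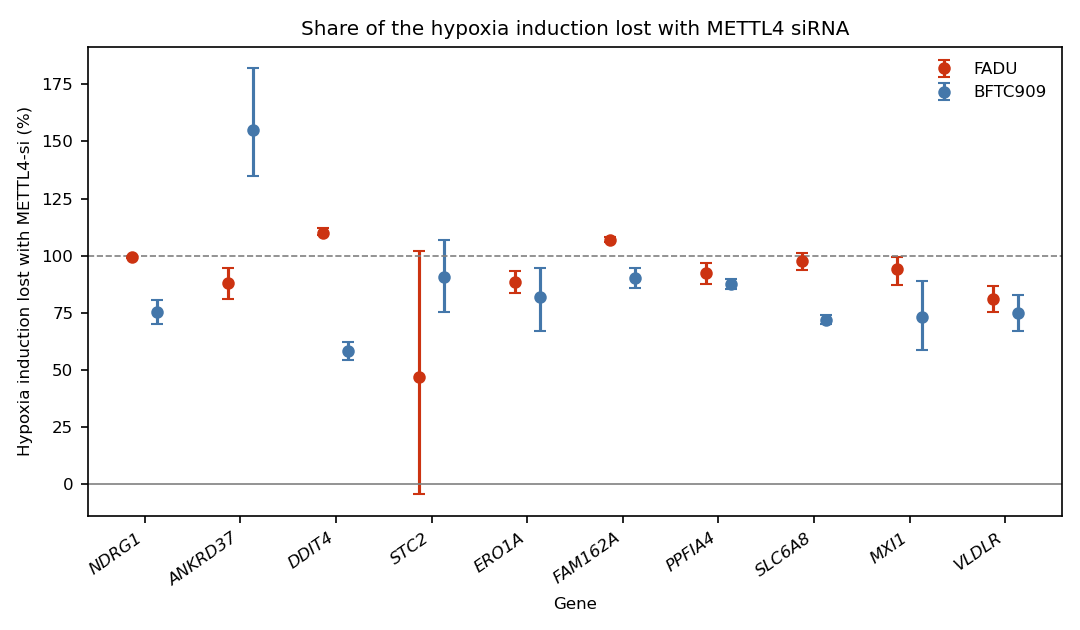
Percent of the hypoxia induction lost with METTL4-si for each gene in FADU (red) and BFTC909 (blue); points use group means of 2 libraries and bars span all combinations of single libraries. DDIT4 is at 110% in FADU and 58.4% in BFTC909, ANKRD37 is at 155% in BFTC909, and the bar of STC2 in FADU runs from -4.3% to 102%.

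The overexpression libraries asked whether METTL4 or RP11-390F4.3 raised these genes with oxygen present. METTL4 was 35.4 and 32.7 in the control, 158 and 139 in METTL4-OE and 30.0 and 28.9 in RP11-390F4.3-OE cells. RP11-390F4.3 is a lncRNA gene at chr9:6716157-6727438 (plus strand, GRCh37), and its reads stood at 12.9 and 13.4 in the control, 21.8 and 21.7 in METTL4-OE and 23.9 and 25.1 in RP11-390F4.3-OE cells. The difference between both overexpression groups was 0.16 ± 0.0753 on the log2 scale (adjusted p = 0.0827). The columns of the RP11-390F4.3-OE cells carry another name in the deposited table and were assigned by elimination, so all values of this group rest on that assignment.

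Of the 10 genes, 9 were higher in METTL4-OE than in control cells and 1, MXI1, was not, against 8.3% of all 15644 genes tested that were called higher and 11.1% called lower. Results of all tables were known when the genes were chosen. The counts and p-values of the 10 in the overexpression comparisons are therefore not independent support. The median log2 fold change of the 10 was 1.00, or 0.62 with a pseudocount of 5 in place of 1, beside 0.01 over all genes. NDRG1 was 119 and 101 in the control and 667 and 642 with METTL4-OE (log2 fold change 2.57 ± 0.0621, adjusted p = 6.66e-12). SLC6A8 rose from 8.68 and 6.10 to 30.5 and 27.7 (1.86 ± 0.114, adjusted p = 2.39e-08). ANKRD37 rose from 1.00 and 1.12 to 3.88 and 3.67, and DDIT4 from 132 and 136 to 303 and 313, by 1.21 and 1.20 on the log2 scale (adjusted p = 6.67e-06 and 1.22e-10).

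STC2 was 87.9 and 76.5 in the control and 172 in each METTL4-OE library (1.06 ± 0.0592, adjusted p = 1e-08). PPFIA4 went from 2.91 and 3.12 to 6.76 and 6.75, and FAM162A from 25.1 and 24.9 to 43.7 and 42.4 (0.95 and 0.76, adjusted p = 5.74e-05 and 1.92e-07). VLDLR and ERO1A had the smallest rises, of 0.46 (12.4 and 11.1 to 16.3 and 16.6, adjusted p = 0.000693) and 0.40 (129 and 111 to 161 and 156, adjusted p = 0.000191). ERO1A stood at the edge of the criterion: without control replicate 2 its log2 fold change was 0.29, and without METTL4-OE replicate 1 it was 0.38 but no longer past 1.3-fold. MXI1 was 10.8 and 10.3 in the control and 11.1 and 9.88 with METTL4-OE, overlapping groups with a difference of -0.01 ± 0.0831 (adjusted p = 0.911).

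All 10 genes were higher in RP11-390F4.3-OE than in control cells, where 16.8% of all genes were called higher and 12.8% lower, and the median log2 fold change of the 10 was 1.94. Both overexpression groups were set against the same control libraries. NDRG1 reached 2052 and 2079 (4.23 ± 0.0621, adjusted p = 2.5e-14), PPFIA4 19.6 and 26.3 (2.56 ± 0.129, adjusted p = 2.46e-09) and SLC6A8 46.6 and 46.4 (2.52 ± 0.114, adjusted p = 8.76e-10). DDIT4 reached 648 and 657 (2.28), MXI1 44.3 and 43.7 (1.96) and ANKRD37 6.52 and 7.07 (1.92). The rises of FAM162A to 59.0 and 57.6 (1.19), VLDLR to 25.8 and 24.6 (1.04), ERO1A to 237 and 222 (0.93) and STC2 to 122 and 128 (0.60) were smaller. The adjusted p-values of these 7 genes were 1.86e-06 or less.

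**Figure D3:**
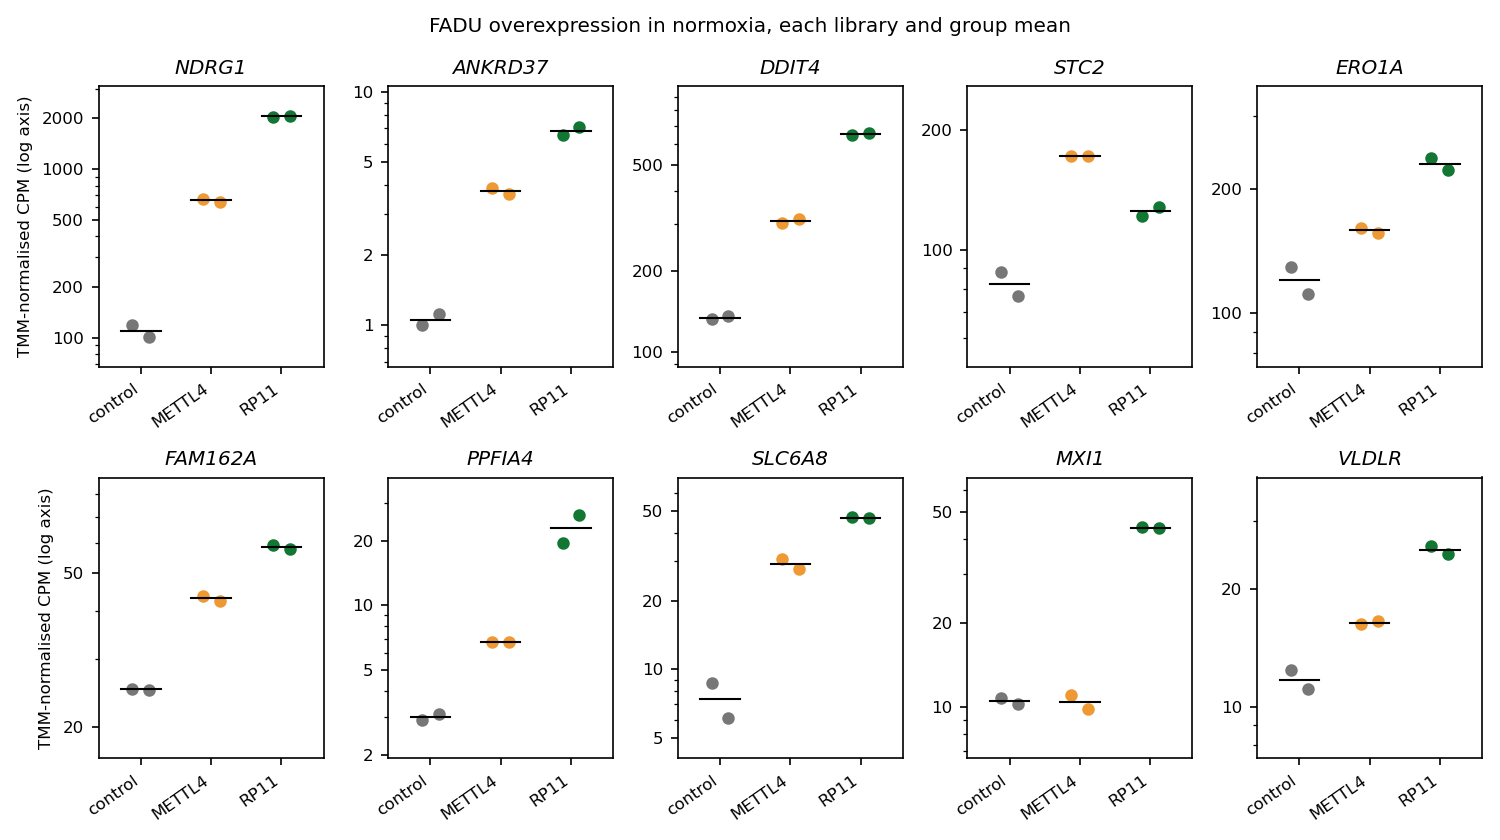
TMM-normalised CPM of each gene on a log axis in FADU control, METTL4-OE (METTL4) and RP11-390F4.3-OE (RP11) cells in normoxia; each point is 1 library and each line the mean of 2. RP11-390F4.3-OE is highest for every gene apart from STC2, and MXI1 is at 11.1 and 9.88 in METTL4-OE, level with the control.

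Set directly against METTL4-OE, RP11-390F4.3-OE cells had higher levels of 9 genes and a lower level of 1, where 18.8% of all genes were called higher and 13.6% lower. The largest difference was that of MXI1 (1.97 ± 0.0831, adjusted p = 4.7e-10), followed by NDRG1 (1.66 ± 0.0621, adjusted p = 1.59e-10), PPFIA4 (1.61 ± 0.129, adjusted p = 2.23e-07) and DDIT4 (1.08 ± 0.0427, adjusted p = 2.65e-10). ANKRD37, SLC6A8, VLDLR, ERO1A and FAM162A followed with 0.71, 0.66, 0.59, 0.53 and 0.43. STC2 went the other way, at 122 and 128 against 172 and 172 (-0.45 ± 0.0592, adjusted p = 2.24e-05).

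The sizes of the responses to hypoxia and to RP11-390F4.3-OE, measured in separate libraries of FADU, put the 10 genes in the same order on the log2 scale: NDRG1, PPFIA4, SLC6A8, DDIT4, MXI1, ANKRD37, FAM162A, VLDLR, ERO1A and STC2. Spearman's rank correlation was 1 across the 10 genes, and 0.988 for ratios of means, where ANKRD37 and SLC6A8 changed places. Several neighbours in this order, such as FAM162A (1.53), VLDLR (1.5) and ERO1A (1.49) under hypoxia, did not differ beyond their errors. Over the list of 30 other HIF targets the same correlation was 0.736, and it was 0.286 over all 15482 genes tested in both. With METTL4-OE the rank correlation with hypoxia was 0.539 over the 10 genes (0.733 for ratios of means), 0.740 over the 30 and 0.0333 over all 15482. Between hypoxia in BFTC909 and RP11-390F4.3-OE in FADU the rank correlation was 0.321 for the 10 genes. It had to equal the value between the lines under hypoxia, since both FADU orders were the same. Over 29 other HIF targets it was 0.13, and over 13405 genes 0.0197. Genes are not independent replicates, and these values are given as a description.

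**Figure D4:**
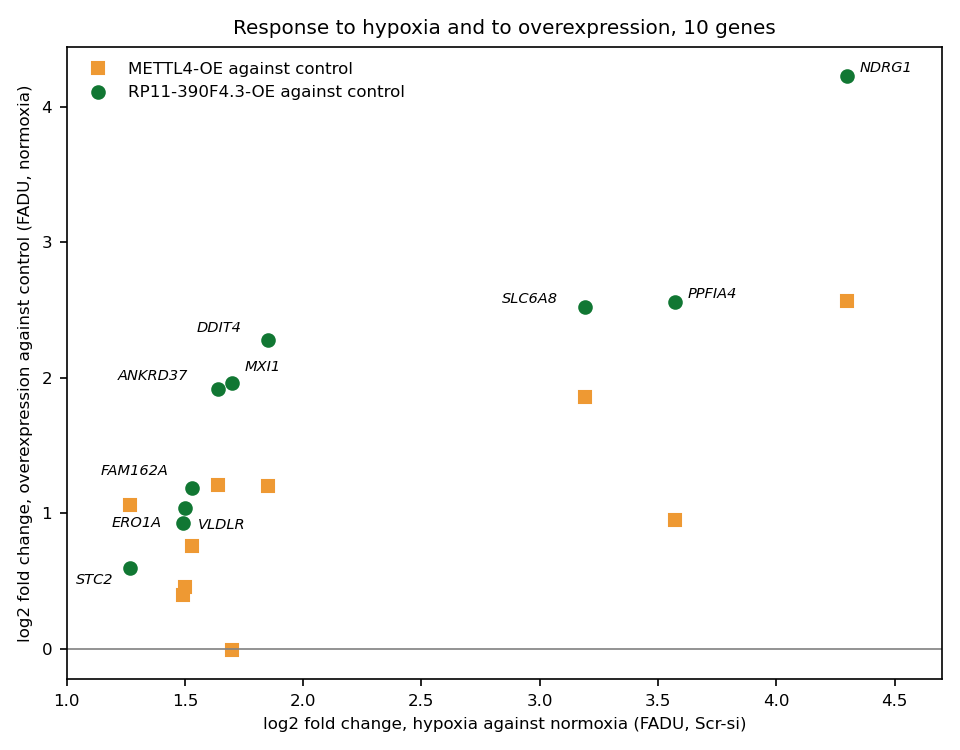
Log2 fold change of each gene under hypoxia in FADU Scr-si cells (x axis) against its log2 fold change with RP11-390F4.3-OE (green circles, named) or METTL4-OE (orange squares) in normoxic FADU cells (y axis), on the scale of log2(TMM-normalised CPM + 1). The green circles climb from STC2 (1.27 and 0.60) to NDRG1 (4.3 and 4.23) in the same order on both axes, and the orange square of MXI1 lies at -0.01.

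In the METTL4-DPPW-mut clones under hypoxia, 2 of the 10 genes were lower than in the CRISPR control by 1.3-fold or more in both clones and none was higher, where 11.8% of 15719 genes were lower and 8.94% higher by this measure. There was 1 control library and so no test. NDRG1 was 1657 in the control library, against 895 and 897 in those of the clones (54.0% and 54.1% of the control). MXI1 was 32.1 against 12.6 and 17.0 (39.2% and 52.8%). The normoxic state of these lines was not analysed here, so these are levels under hypoxia and not inductions. The other 8 genes lay between 84.8% and 148% of the control: SLC6A8 was 47.2 in the control against 59.5 and 69.8, DDIT4 was 307 against 327 and 392, and ERO1A was 141 against 135 and 130. METTL4 RNA itself was 15.9 and 10.6 in the clones, beside 12.5 in the control. Each clone is 1 line, so differences between single-cell lines and the effect of the mutation cannot be told apart.

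**Figure D5:**
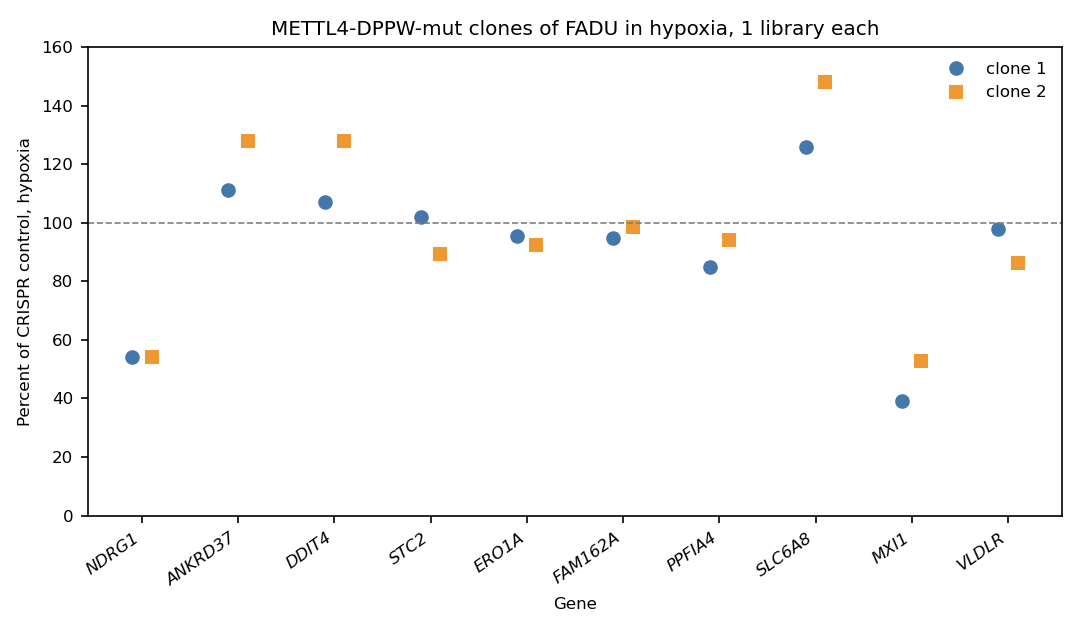
Level of each gene in the METTL4-DPPW-mut clones of FADU under hypoxia, as a percent of the CRISPR control; each point is 1 library. NDRG1 (54.0% and 54.1%) and MXI1 (39.2% and 52.8%) lie well below the dashed line at 100%, and the other 8 genes lie between 84.8% and 148%.

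Other HIF targets outside glycolysis, a list of 30 genes that share no member with the 10, mostly moved in the same directions. This list too was chosen with earlier results of these data known, and EGLN3, BNIP3 and CA9 are named for the size of their changes. The counts and p-values are therefore not independent support. In FADU 29 rose under hypoxia and 1, VEGFA, fell, and in BFTC909 28 of the 29 tested rose. Of all genes, 12.4% in FADU and 19.5% in BFTC909 were called higher. With METTL4-si 28 of 30 fell in FADU and 28 of 29 in BFTC909, beside 16.8% and 12.9% of all genes called lower. EGLN3, a prolyl hydroxylase that itself limits HIF, rose from a mean of 21.6 to 292 in FADU and fell to 17.4 with METTL4-si (log2 fold change -3.99, adjusted p = 1.74e-05), and BNIP3, a mitophagy receptor, went from 14.9 to 182 to 12.5. CA9, a carbonic anhydrase of the cell surface, rose most in BFTC909, from 0.766 to 55.1 (5.03 on the log2 scale, adjusted p = 1.18e-05). In the overexpression libraries 20 of the 30 were higher with METTL4-OE and 29 with RP11-390F4.3-OE, with medians of 0.60 and 1.24. Of all genes, 8.3% and 16.8% were called higher in these comparisons. In the METTL4-DPPW-mut clones 13 of the 30 were lower by 1.3-fold or more in both, CA9, PLOD2 and TMEM45A among them. None was higher by this measure, beside 11.8% of all genes lower and 8.94% higher. By any amount, 17 of the 30 were below the control in both clones and 8 above it. Of all 15719 genes, 6398 (40.7%) were below it in both clones and 6222 above it.

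The genes that followed the mean of the 10 most closely over the 12 siRNA libraries, centred within each line, were TMEM45A (Pearson r = 0.995), P4HA1 (0.991), ENO2 (0.990), ARRDC3 (0.990), LOXL2 (0.987), SNX33 (0.987), KCTD11 (0.985) and PLOD2 (0.984), among 9816 genes with a mean of at least 5 in both lines. P4HA1, PLOD2 and LOXL2 modify collagen, and ENO2 is a glycolytic enolase. TMEM45A went from 3.18 to 29.9 to 3.80 in FADU and from 8.30 to 62.6 to 12.4 in BFTC909. Of the 10 genes themselves, PPFIA4 followed the mean of the other 9 most closely (0.990) and STC2 least (0.803). These libraries share 3 conditions, so the correlations describe a common pattern over conditions.

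Close relatives of the 10 genes, a list of 27, moved in both directions. In FADU 4 of the 23 tested rose under hypoxia and 5 fell, with 12.5% of all genes called lower, and in BFTC909 9 of 21 rose and 1 fell, with 19.2% of all genes called lower. With METTL4-si 7 rose and 5 fell in FADU (15.2% of all genes called higher), and 4 rose and 2 fell in BFTC909 (15.7%). STC1, the sister of STC2, rose under hypoxia in FADU from a mean of 18.8 to 59.3 and fell to 25.8 with METTL4-si (log2 fold changes 1.61 and -1.17, adjusted p = 0.000407 and 0.000716), and in BFTC909 went from 88.5 to 203 to 43.9. With METTL4-OE STC1 rose from 13.4 to 120 and with RP11-390F4.3-OE to 154 (3.07 and 3.43, adjusted p = 1.19e-11 and 1.88e-12), more than STC2 did. LRP1, a relative of VLDLR that takes up lipoproteins and protease complexes, rose in both lines under hypoxia (0.97 and 1.31) and fell with METTL4-si in FADU (-0.71, adjusted p = 0.00168).

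Other relatives gave a mixed picture. LRP8, a relative of VLDLR, fell with METTL4-OE from a mean of 109 to 53.5 (-1.01, adjusted p = 1.96e-09), while VLDLR rose. MXD1, which like MXI1 pairs with MAX, rose from 20.8 to 30.6 with METTL4-OE (0.54, adjusted p = 8.34e-06), where MXI1 did not pass the test, and to 81.8 with RP11-390F4.3-OE (1.93, adjusted p = 1.59e-11). SLC6A9, a glycine transporter related to SLC6A8, fell under hypoxia in FADU, from 20.7 to 11.2, and rose in BFTC909, from 16.7 to 49.9, where SLC6A8 was also higher.

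The counts for pathways around the 10 genes are read beside the shares over all genes given above. Of the ATF4 targets, a stress programme that STC2 and DDIT4 also answer to, 1 of 21 rose and 6 fell under hypoxia in FADU, whereas 15 of 22 rose and 1 fell in BFTC909. With METTL4-si 3 rose and 3 fell in FADU, and 1 rose and 9 fell in BFTC909, SLC7A5, an amino acid transporter, from a mean of 901 to 281 (-1.68, adjusted p = 4.2e-05). Among 13 genes of mTORC1 control, the complex that DDIT4 restrains, 3 rose and 2 fell under hypoxia in FADU, beside 12.4% and 12.5% of all genes, and 1 of 12 rose and 0 fell in BFTC909, counts too small to read a change of the list from. With METTL4-si 4 of the 13 fell and 0 rose in FADU, and 2 of 12 fell and 0 rose in BFTC909. Of all genes, 16.8% and 12.9% were called lower in this comparison. RHEB, the activator of mTORC1, fell with METTL4-si from 112 to 56.5 in FADU and from 229 to 156 in BFTC909 (-0.98 and -0.57, adjusted p = 0.000435 and 0.0068). In the MYC network around MXI1, 1 of 11 genes rose and 0 fell under hypoxia in FADU, and 4 of 10 rose and 2 fell in BFTC909, beside 19.5% and 19.2% of all genes. MXD4 (1.14), MYCL (0.76) and MXD3 (0.76) were among those that rose there, and MYC fell from 122 to 64.7 (-0.90, adjusted p = 0.000214). With METTL4-si 1 of the 11 genes of this network rose and 2 fell in FADU, and 0 of 10 rose and 1 fell in BFTC909.

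Of 12 genes of oxidative folding, the pathway of ERO1A, 5 rose and none fell under hypoxia in BFTC909, and 5 fell and 1 rose with METTL4-si there. HSPA5, the chaperone BiP, went from 733 to 383 with METTL4-si in BFTC909 (-0.93, adjusted p = 0.000154) and fell under hypoxia in FADU from 739 to 558 (-0.40, adjusted p = 0.0261). In FADU 1 of the 12 rose and 2 fell under hypoxia, and 2 rose and 1 fell with METTL4-si. Of 7 genes of creatine synthesis and kinases, whose substrate SLC6A8 carries, 2 of the 5 tested in FADU rose under hypoxia and the same number fell with METTL4-si. CKMT1B, a mitochondrial creatine kinase, went from 1.79 to 5.98 to 1.82, and its near-identical copy CKMT1A, whose reads cannot be told apart with certainty, went from 1.48 to 2.38 to 1.40. Of lipoprotein receptors and partners, 1 of 11 rose and 3 fell under hypoxia in FADU, and 5 rose and 1 fell with METTL4-si. In BFTC909 3 of 10 rose and 2 fell under hypoxia, and 4 rose and 0 fell with METTL4-si.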

How the data were processed

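RNA-seq libraries were made with a stranded ribosomal RNA depletion kit. Per the labels and the submitters' processing notes, Trim Galore, HISAT2 (hg19), HTSeq and edgeR were used, and the authors deposited a normalised signal per gene, the TMM-normalised CPM (tool versions and annotation are not given in the sources used here). In the table of the mutant clones, rows that name no gene took 40.9% to 43.0% of each library and were left out. Gene identifiers were matched to GRCh37.

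Here log2(value + 1) was fitted with limma 3.58.1 (trend option, R 4.3.3), the 3 groups of a table sharing the spread, for genes reaching 1 in 2 or more libraries. The threshold for a call was a change of 1.3-fold together with p under 0.05 before adjustment. Adjusted p-values are Benjamini-Hochberg over all genes of a comparison. SE are those of limma, from the shared spread, although the groups differed in noise. Chi-square per degree of freedom between replicates was 28.3 in FADU METTL4-si, 2.65 in Scr-si hypoxia and 8.9 in normoxia. In BFTC909 it was 23.1, 3.76 and 2.06 in the same order. SE for hypoxia against normoxia may thus be too large, and those for METTL4-si too small. Each table was normalised and tested on its own. The fit was also run on simulated counts with the same noise in every group. The groups here differed in noise, so that run does not show how the fit handles unequal noise. Alternatives included whole reads recovered from the values (100% of values came out whole) in edgeR 4.0.16.

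The 10 genes and all lists were chosen with earlier results of these data known. Named genes are the 10, METTL4, RP11-390F4.3, up to 4 relatives with the largest change, up to 3 called genes in each direction of every other list, the 8 genes most like the mean of the 10, and genes overlapping a member. The comparison between both overexpression groups was added after seeing the data. Same-numbered replicates were treated as unpaired. Figures were drawn with matplotlib 3.10.9 (Python 3.11.15). A few named genes are not reported here.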

Additional observations from a re-analysis of the deposited data

Results flagged for a closer look

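Genes of the lists around the 10 that were called in both lines in opposite directions, with no overlap between the libraries compared in either line, are given here as log2 fold changes, and the difference between lines was not tested. Under hypoxia VEGFA, a HIF target and angiogenic factor, changed by -0.41 in FADU (237 and 248 to 176 and 189) and by 2.49 in BFTC909 (70.2 and 83.8 to 440 and 432). With METTL4-si VEGFA changed by 0.45 in FADU and by -0.81 in BFTC909. SLC6A9, the relative of SLC6A8, changed under hypoxia by -0.83 in FADU and 1.53 in BFTC909, and with METTL4-si by 1.12 in FADU and -0.92 in BFTC909. Among ATF4 targets under hypoxia, CHAC1 changed by -0.91 in FADU and 1.03 in BFTC909, SLC7A11 by -0.52 and 0.91, and SLC7A5 by -0.44 and 1.25.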

How the results depend on the processing

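Of 689 values recomputed under alternatives, 661 were counted as the same, 24 moved, 4 no longer passed and 0 reversed. A median counted as the same when it changed by less than a set spread, and a count when it stayed within a set ratio. A single gene counted as the same when its call did not change, whatever its size. For genes not called, a change of sign was not counted as reversed. The median log2 fold change of the 10 genes was 1.67 for hypoxia in FADU, and 1.83 with a pseudocount of 0.1, 1.44 with one of 5 and 1.87 in edgeR. For METTL4-si in FADU (-1.63) it was -1.42 with a pseudocount of 5 and -1.8 in edgeR. For hypoxia in BFTC909 (2) it was 2.18 over genes with a mean of at least 5, which dropped ANKRD37. For METTL4-OE (1.00) it was 1.1, 0.62 and 1.1 with pseudocounts of 0.1 and 5 and in edgeR. For RP11-390F4.3-OE (1.94) it was 2.17, 1.36 and 2.16 in the same order and 1.86 with median-centred libraries. Between both overexpression groups (0.68) it was 0.56 with a pseudocount of 5, 0.6 with median-centred libraries and 0.76 in edgeR. The median share of induction lost was 86.1% in FADU and 67.1% in BFTC909 on the log2 scale. Leaving out 1 library at a time it ran from 92.7% to 97.4% in FADU and from 72.6% to 81.1% in BFTC909. The 4 calls no longer made were METTL4-OE VLDLR with a pseudocount of 5 (0.36), METTL4-OE ERO1A without control replicate 2 (0.29) or METTL4-OE replicate 1 (0.38), and FAM162A between overexpression groups with median-centred libraries (0.34). The causes were not tested. The 3 libraries set apart by raised marker sums were also left out together. These sums were of breast luminal and fibroblast markers in FADU, and of urothelial and simple epithelial markers in BFTC909. That left 1 METTL4-si library in each line and 1 normoxia library in FADU. No count of the other HIF targets is therefore read from that fit. Same-numbered replicates did not deviate together in every pair of groups (correlations from -0.0939 to 0.675) and were not taken as pairs. The highest correlation was that of FADU Scr-si normoxia with METTL4-si, whose replicate 1 libraries both held the higher breast luminal and fibroblast sums. With the replicate number as a block, the medians (1.67, -1.63, 2, -1.32, 1.00, 1.94 and 0.68) could not change, since each group held replicates 1 and 2. The calls could change, and 9, 10 and 9 of the 10 genes were called higher in the overexpression comparisons. With 2 libraries a group, and 1 control library for the clones, small differences were not detectable, and the overexpression values of RP11-390F4.3 rest on columns assigned by elimination.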

Other observations

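The reads of RP11-390F4.3 followed the 10 genes in direction in the siRNA libraries. In FADU they were 12 and 12.3 in normoxia, 31.7 and 31.3 under hypoxia and 19.0 and 22.2 with METTL4-si (log2 fold changes 1.31 and -0.59, limma adjusted p = 0.000642 and 0.0055). In BFTC909 RP11-390F4.3 was low, at 0.358 and 0.336, then 1.59 and 2.25, then 0.469 and 1.41 (1.11 and -0.62, adjusted p = 0.00877 and 0.0903).

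Counts for the lists around the 10 genes in the overexpression cells are given beside the shares of all genes, 8.3% called higher and 11.1% lower with METTL4-OE, and 16.8% and 12.8% with RP11-390F4.3-OE. With METTL4-OE 2 of 24 relatives rose and 7 fell, 5 of 11 lipoprotein receptors and partners fell and 0 rose, and 1 of 21 ATF4 targets rose and 3 fell. Of 13 genes of mTORC1 control 2 fell, of 10 of the MYC network 1 rose and 1 fell, of 12 of oxidative folding 1 rose and 1 fell, and of 5 of creatine metabolism 1 fell, counts of 0 to 2 from which no change of a list is read. With RP11-390F4.3-OE 8 of 24 relatives rose and 3 fell, and 9 of 21 ATF4 targets rose and 5 fell, with ATF3, a stress-induced transcription factor, at a log2 fold change of 2.20. In these cells 3 genes of mTORC1 control rose, SESN2, a stress-induced inhibitor of mTORC1, among them (0.55), 3 of the MYC network rose, MYC itself from a mean of 146 to 226 (0.63, adjusted p = 2.86e-07), and 1 gene of oxidative folding rose and 3 fell.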
